A study of Mus musculus with 17 samples.

Results

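The 9 genes described here encode a set of apolipoproteins made by the liver and the protein that loads lipid onto one of them. They are Apoa1, Apoa2, Apoa4, Apoa5, Apob, Apoc1, Apoc3, Apoe and Mttp. They were taken by symbol as a family, without a threshold on their values, and all 9 were found by symbol among 55536 gene identifiers and passed the filter on low counts that left 14393 genes.

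The libraries came from hepatocytes isolated by collagenase perfusion from livers of C57BL/6J mice 3 months old. Every mouse carried the ApcDHep genotype, a loss of Apc in hepatocytes that frees β-catenin from degradation, and every mouse received AAV8 with SaCas9 constructs, in place for 1 month, and tamoxifen (2 mg, 7 days). The construct edited either the WRE, a site bound by β-catenin ahead of the DLK1/DIO3 genes (condition DLK1DWRE, here WRE-edited, 6 libraries), or Rosa26, a control locus (condition ROSA26, here Rosa26-edited, 5 libraries). There was no group with intact Apc, so nothing here bears on the effect of losing Apc. Not given in the sources used here were the promoter that drives the deletion and the share of alleles edited. Libraries 1 to 3 of both groups belong to run r770. Run r595 contains WRE-edited 6 and Rosa26-edited 4 and 5, and WRE-edited 4 and 5 form run r711, which lacks a control. The labels do not say that each library is a separate mouse, and the library names of WRE-edited 4 and 6 share a number, so a p-value reflects only how these libraries vary.

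Apolipoproteins are the protein coats of the particles that carry lipid in blood. Apob is the scaffold of very low density lipoprotein, and Mttp transfers triglyceride to it in the endoplasmic reticulum as it is made. Apoa1 and Apoa2 are the main proteins of high density lipoprotein. Apoe is the ligand by which the liver takes remnant particles back up, while Apoc1, Apoc3, Apoa4 and Apoa5 are exchangeable proteins, of which Apoc3 slows and Apoa5 speeds the clearance of triglyceride.

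On GRCm38.p6, Apoa1, Apoc3, Apoa4 and Apoa5 lie together on chromosome 9 within 43292 bases (46228630 to 46271921). Apoc1 and Apoe lie together on chromosome 7 within 11831 bases (19689480 to 19701310). Apoa2 is on chromosome 1 (171221564 to 171226379) and Mttp on chromosome 3 (138089855 to 138143418). Apob is on chromosome 12 (7977629 to 8016839), the chromosome of the edited locus, with 101.5 Mb between its end and the start of Meg3, a transcript of that locus.

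RefSeq promoter windows of GRCm38.p6, from 250 bases before to 50 bases after a start, were found for 7 of the 9 genes, 11 windows in all, and none was matched for Apoc1 and Apoc3. Those of Apob, Apoe and Apoa5 are shown, since Apob and Apoe deviated in opposite directions in the same libraries and Apoa5 had the largest fold change of the 9. Capitals mark TATAAA, the TATA box, read on either strand.
Apob, chr12:7977427-7977726, plus strand: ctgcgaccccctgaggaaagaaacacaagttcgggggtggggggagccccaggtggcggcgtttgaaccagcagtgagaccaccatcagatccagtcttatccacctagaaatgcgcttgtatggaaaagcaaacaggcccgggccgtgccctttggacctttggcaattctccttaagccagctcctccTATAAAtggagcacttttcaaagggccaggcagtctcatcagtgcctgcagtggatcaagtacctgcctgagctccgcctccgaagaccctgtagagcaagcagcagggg
Apoe, chr7:19699139-19699438, minus strand: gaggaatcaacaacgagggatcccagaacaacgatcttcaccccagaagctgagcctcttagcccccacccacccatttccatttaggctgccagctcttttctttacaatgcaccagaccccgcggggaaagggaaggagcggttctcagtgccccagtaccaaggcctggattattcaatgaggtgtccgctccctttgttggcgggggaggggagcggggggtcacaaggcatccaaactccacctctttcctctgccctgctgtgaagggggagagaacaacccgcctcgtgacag
Apoa5, chr9:46268358-46268657, plus strand: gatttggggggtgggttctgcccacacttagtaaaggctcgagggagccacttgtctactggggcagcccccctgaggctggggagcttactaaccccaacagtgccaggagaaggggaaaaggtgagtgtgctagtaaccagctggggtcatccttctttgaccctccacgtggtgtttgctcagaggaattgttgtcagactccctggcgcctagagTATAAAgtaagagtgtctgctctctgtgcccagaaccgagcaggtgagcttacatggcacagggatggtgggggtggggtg
The first base of TATAAA stood 60 bases before the start that the Apob window uses, counting the base before the start as 1. In the Apoa5 window shown it stood 31 bases before the start, and in the other Apoa5 window 56 bases. These distances depend on the start chosen, and the Apob gene start given above, 7977629, lies ahead of the one its window uses. The Apoe window shown held no TATAAA, while another Apoe window and 1 of the Apoa2 windows held it. TATAAA is in 13.6% of the 32817 windows of all genes. ATCAAAG, the core that TCF factors of the β-catenin pathway bind, was in 0 of the 11 windows, and 3.73% of all windows hold it on either strand. AAAGTCC, part of the binding site of the liver factor HNF4, was in 1 of the 11, an Apoa2 window, against 4.21% of all windows. These letters are a description of the windows and do not show binding or its absence.

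RNA-seq totals were 20727036 to 38935135 expected counts per library. Transcripts encoded by mitochondria took 6.93% to 9.40% of the counts in the 3 libraries of r595 and 20.9% to 32.5% in the other 8. Hepatocyte markers were abundant, with Alb, the albumin gene, at 9372 to 26474 TPM and Ttr, transthyretin, at 1256 to 2797 TPM. TPM is the transcript level per effective length, scaled to the same total in every library.

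The 9 genes together made up 2.07% to 3.25% of all counts and 1.41% to 2.58% of TPM. Per length, Apoe was the most abundant in every library, at a mean of 7913 ± 2516 TPM (SD, n = 11), which placed it between rank 6 and rank 13 of all genes. Apoa2 followed at 4113 ± 1229 TPM, Apoc1 at 3015 ± 482.0 TPM and Apoa1 at 1872 ± 261.9 TPM. A middle tier held Apob at 570.0 ± 211.5 TPM, Apoc3 at 474.6 ± 84.5 TPM and Apoa5 at 206.6 ± 88.4 TPM. The lowest were Mttp at 52.8 ± 11.8 TPM and Apoa4 at 24.1 ± 7.40 TPM. Mttp is a transfer protein of assembly and not a coat protein, and Apoa4 in mice is made by intestine as well as liver.

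The order held closely across libraries. Of the 8 pairs of neighbours, 6 kept their order in 11 of 11 libraries. Apoa2 exceeded Apoc1 in 10 of 11, with WRE-edited 1 the exception, by a mean log2 difference in TPM of 0.41 ± 0.30 (SD, n = 11). Apob exceeded Apoc3 in 8 of 11, and that log2 difference of 0.19 ± 0.48 was smaller than its spread. The 3 exceptions were WRE-edited 3, WRE-edited 6 and Rosa26-edited 2. With TPM recomputed over annotated in place of effective length, the mean levels kept this order for all 8 pairs. Counts give another picture, since the Apob transcript is by far the longest at 12956 to 13694 bases: it ranked between 7 and 14 of all genes by counts, against 79 to 181 by TPM.

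**Figure D1:**
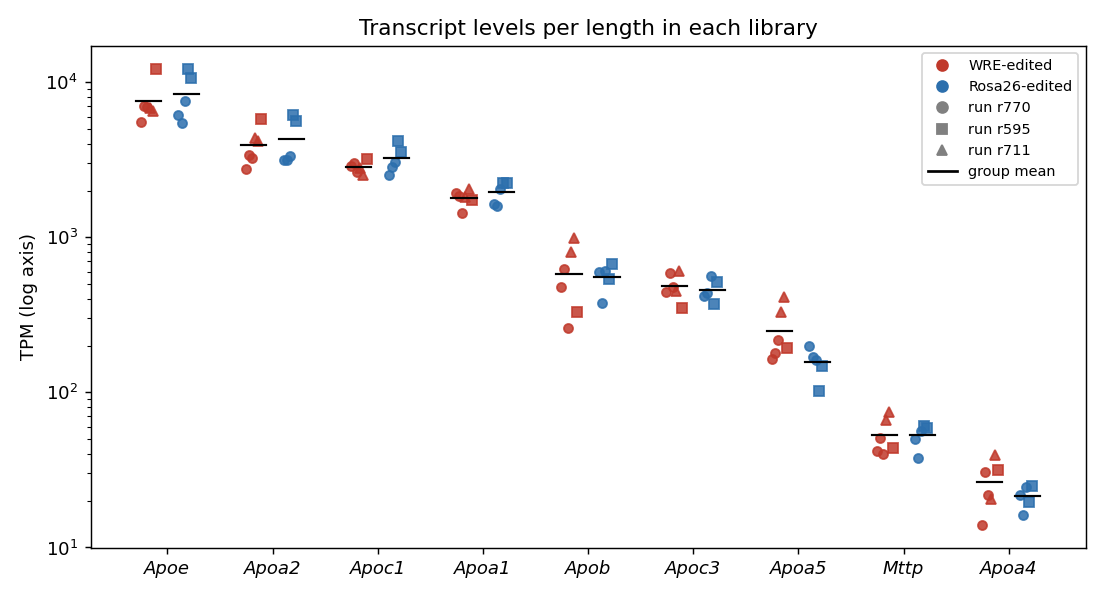
TPM of each gene on a log axis, 1 point per library, coloured by editing and shaped by run, with a bar at each group mean. Apoe is highest and Apoa4 lowest, the groups overlap for every gene, and the squares of run r595 sit high for Apoe and Apoa2.

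Levels of several of these genes also differed between runs. In r595 the mean of Apoe was 1.81 times that of r770 in TPM (1.67 times when mitochondrially encoded transcripts were left out of the total), and that of Apoa2 was 1.85 times (1.71). Apoa5 went the other way, at 0.810 of its r770 level (0.745), and Apoc3 was at 0.847 (0.784). For Apoa5 the lower values were those of the controls, 101.4 and 147.4 TPM in r595 against 162.1 to 199.9 TPM in r770. WRE-edited 6 was at 192.6 TPM, within the 163.1 to 217.9 TPM of the WRE-edited libraries of r770. Apob was at 1.05 (0.970) of its r770 mean. Apoa5 and Apob were highest in the 2 libraries of r711, at mean levels of 370.1 and 894.6 TPM against 181.8 and 489.7 TPM in r770. The runs also differ in their mix of groups: r595 holds 1 WRE-edited and 2 Rosa26-edited libraries, r770 3 of each, and r711 only WRE-edited ones. Run and editing are thus mixed in these means. The runs were not made as a comparison, so these are values without a test, and the editing effect below was fitted with the run as a term.

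The comparison of WRE-edited with Rosa26-edited hepatocytes called 0 of the 9 genes, in edgeR's quasi-likelihood test with Benjamini-Hochberg adjustment over all genes tested. Of all 14393 genes this test called 0.00695%, a single one. By DESeq2 0 of the 9 passed, where 0.6% of all genes did. At an unadjusted p under 0.05 there was 1 of the 9, Apoa5, while 10.1% of all genes were there. The groups overlapped for all 9, while 0.375% of all genes had groups that did not. Within r770 alone they overlapped for all 9 too, and 7.64% of all genes had groups apart there. Of the 9 log2 fold changes 7 were above 0, beside 51.7% of all genes, and the median was 0.14 beside 0.01 over all genes.

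Among the high density lipoprotein genes, Apoa1 had nearly equal levels. CPM is a gene's count per library total, scaled with TMM factors and not corrected for length. Apoa1 stood at 2316 ± 292.2 CPM (SD, n = 6) in WRE-edited and 2351 ± 84.7 CPM (SD, n = 5) in Rosa26-edited libraries. The log2 fold change was 0.04 ± 0.12 (SE), with a 95% interval from -0.22 to 0.30, which spans 0.862-fold to 1.23-fold. Apoa2 stood at 2009 ± 473.5 CPM against 1948 ± 310.5 CPM. Its fitted log2 fold change was 0.15 ± 0.13, with an interval from -0.13 to 0.42. For neither gene was a difference detected, and a change within these intervals is not excluded by that.

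Apob, the scaffold, ranged from 6309 CPM in WRE-edited 3 and 6352 CPM in WRE-edited 6 to 15546 CPM in WRE-edited 5, around a WRE-edited median of 11726 CPM. The Rosa26-edited libraries 1 to 5 had 13396, 9060, 11096, 8064 and 10616 CPM, so all of them lay inside the WRE-edited range. The fitted log2 fold change was -0.29 ± 0.21 (edgeR adjusted p = 0.628), with an interval from 0.599-fold to 1.12-fold. Without WRE-edited 3 and 6, an alternative chosen after seeing the data, it was 0.07, and without the run term it was 0.07 as well. Leaving out WRE-edited 2 alone gave -0.43. Mttp, its loading partner, ranged from 248.3 to 327.3 CPM over all libraries, the narrowest range in CPM of the 9 but not in TPM, and had a log2 fold change of -0.07 ± 0.11. The Mttp interval, from 0.812-fold to 1.12-fold, was the narrowest of the 9.

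Apoe ranged from 6117 CPM in WRE-edited 5 to 14825 CPM in WRE-edited 6, with a WRE-edited median of 7896 CPM. The Rosa26-edited libraries 1 to 5 had 8008, 7629, 8221, 11153 and 10179 CPM, the last 2 being those of r595. WRE-edited 6, also of r595, was above both, and WRE-edited 3 at 10098 CPM was the highest of r770. The fitted log2 fold change of Apoe was 0.23 ± 0.14 (edgeR adjusted p = 0.570), and -0.01 without WRE-edited 3 and 6. Macrophages also make Apoe. Their 8 markers summed to 117.9 to 231.2 TPM in WRE-edited and 130.4 to 602.2 TPM in Rosa26-edited libraries. All 8 had negative fold changes and 0 were called. Their part in the Apoe values was not tested. In these bulk libraries, fewer cells of a type and less RNA per cell cannot be told apart.

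Of the other exchangeable apolipoproteins, Apoa5 had the largest fold change. It ranged from 343.9 CPM in WRE-edited 6 to 590.0 CPM in WRE-edited 5 around a median of 424.0 CPM, and the Rosa26-edited libraries 1 to 5 had 401.1, 353.5, 305.4, 150.6 and 220.0 CPM. The 2 lowest were the Rosa26-edited libraries of r595, and the 3 WRE-edited libraries of r770 (380.5, 350.4 and 467.5 CPM) overlapped their controls. The log2 fold change of Apoa5 was 0.40 ± 0.17 (edgeR adjusted p = 0.464), with a 95% interval from 0.03 to 0.78. It was 0.18 without WRE-edited 6, where the effect rests on r770 alone, and 0.05 without WRE-edited 3 and 6, while without the run term it was 0.64.

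Apoa4 ranged from 40.0 CPM in WRE-edited 1 to 79.5 CPM in WRE-edited 6, with a median of 70.8 CPM. The Rosa26-edited libraries had 59.3, 47.6, 56.4, 37.2 and 49.4 CPM, so 4 of the 6 WRE-edited libraries were above all controls and the other 2 were not. The log2 fold change of Apoa4 was 0.38 ± 0.22 (edgeR adjusted p = 0.561). It was 0.15 without WRE-edited 6 and 0.56 without WRE-edited 1. Apoc1 had 0.11 ± 0.12 and Apoc3 0.14 ± 0.13, with 95% intervals from -0.16 to 0.38 and from -0.15 to 0.43 on the log2 scale.

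**Figure D2:**
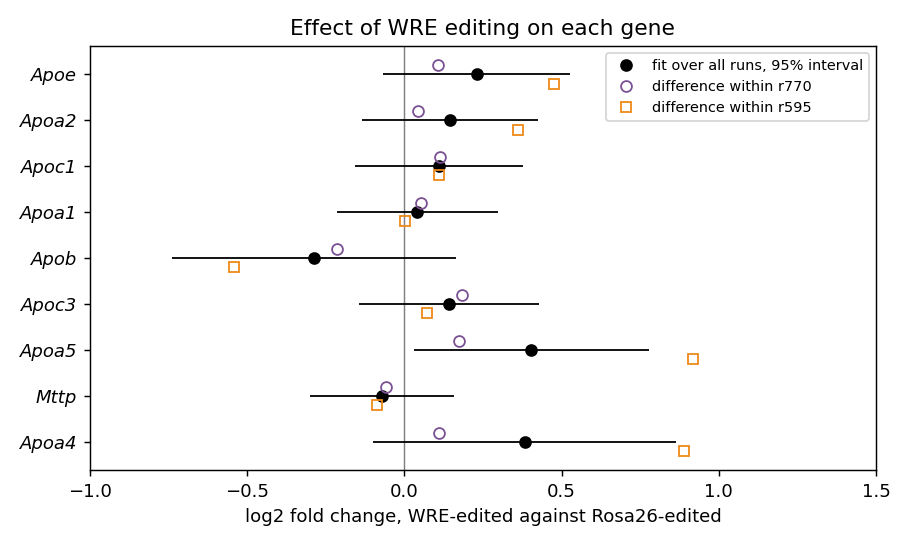
Log2 fold change of each gene, WRE-edited against Rosa26-edited, with the 95% interval of the edgeR fit (black) and the difference in mean log2 CPM within each run that held both groups (open symbols). The intervals of 8 genes span 0, that of Apoa5 starts at 0.03, and the r595 values of Apoa5 (0.92) and Apoa4 (0.89) lie far from those of r770 (0.18 and 0.11).

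Within r770 the differences in mean log2 CPM were small, from -0.21 for Apob to 0.18 for Apoc3. Within r595, with WRE-edited 6 as the single WRE-edited library, they ran from -0.54 for Apob to 0.92 for Apoa5. Apoe was at 0.11 within r770 and 0.48 within r595. Mttp was at -0.06 and -0.09. Tested as an interaction in edgeR, the difference between runs was called for 0 of the 9 genes and for 0% of all genes. Apoa5 alone of the 9 was at an unadjusted p under 0.05 there (r595 minus r770: 0.71 ± 0.32, edgeR adjusted p = 0.649), beside 7.61% of all genes. DESeq2 called the difference between runs for 0 of the 9 and for 11 of all genes.

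The members did not move as one block between libraries. With each library centred on the mean of its run, 17 of the 36 pairs of genes had a positive Pearson's r over the 11 libraries and 19 a negative one, with a median of -0.02. Apoa2 and Apoe were the pair most alike (r = 0.86, Spearman's rho = 0.74), although they lie on different chromosomes. Apoa2 and Apob were the most opposed (r = -0.82, rho = -0.67), followed by Apob and Apoe (r = -0.77, rho = -0.56). The points share library and run, and WRE-edited 3 and 6 lie far from the rest for Apob and Apoe, so these are descriptions without a test.

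**Figure D3:**
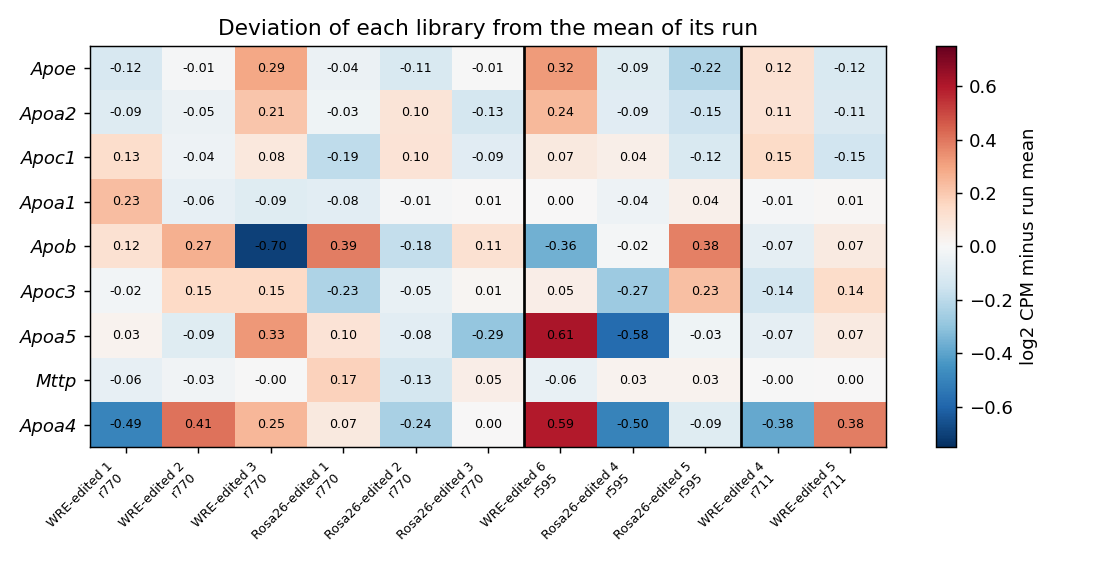
Log2 CPM of each gene in each library minus the mean of the library's run, with lines between runs r770, r595 and r711. In WRE-edited 3 and 6, Apob is low (-0.70 and -0.36) while Apoe (0.29 and 0.32) and Apoa2 (0.21 and 0.24) are high.

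Apob and Apoe, the 2 members with the most counts, differed in order between libraries. Apob had 0.428 counts for each Apoe count in WRE-edited 6 and 0.625 in WRE-edited 3. In the other 4 WRE-edited libraries the ratio was 1.46 to 2.54, and in the Rosa26-edited libraries it was 0.723 to 1.67. Within r770 the 3 controls had 1.67, 1.19 and 1.35, and within r595 they had 0.723 and 1.04. WRE-edited 3 and 6 were thus the lowest of their runs, and WRE-edited 1 and 2 lay among their controls.

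Long transcripts as a class were low in the same libraries. The 64 other genes longer than 8000 bases had a median of -0.50 (log2 CPM minus the run mean) in WRE-edited 3 and -0.29 in WRE-edited 6. The 315 genes shorter than 1000 bases had 0.17 and 0.24. Rosa26-edited 2 had the same pattern, at -0.48 for long and 0.20 for short genes, and there Apob was at -0.18 and Apoe at -0.11. In the other 6 libraries of r770 and r595 the long genes were above the short ones by 0.19 to 0.51. These 3 libraries were also the ones in which Apoc3, a short transcript, exceeded Apob per length. The authors' gene length of Apob, an average over its isoforms weighted by their estimated abundance, was lowest in WRE-edited 6 at 12956 bases and next lowest in WRE-edited 3 at 13326 bases, against 13376 to 13694 bases elsewhere. The length limits were chosen after the values were seen, and the part of transcript length in the Apob result was not tested. Mttp, of 3811 to 3928 bases, was at -0.00 in WRE-edited 3 and -0.06 in WRE-edited 6.

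**Figure D4:**
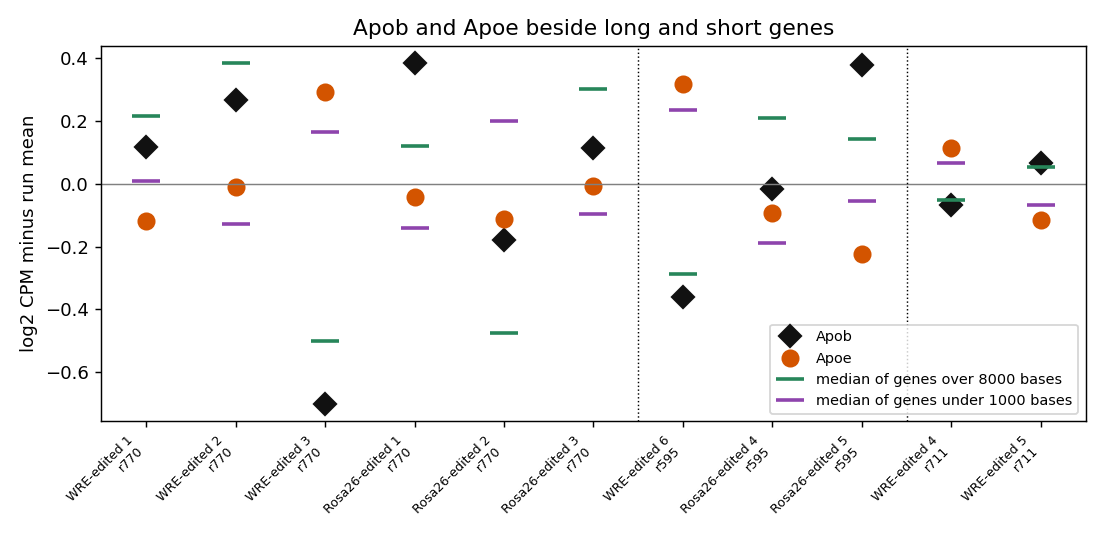
Log2 CPM minus the run mean for Apob, for Apoe and for the medians of 64 long and 315 short genes in each library. Long genes lie below short ones by 0.67 in WRE-edited 3, 0.52 in WRE-edited 6, 0.68 in Rosa26-edited 2 and 0.12 in WRE-edited 4.

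By the same measure, Mvp, the major vault protein gene, was most like the mean of the 9 scaled profiles (r = 0.96 over 11 libraries, among 3050 candidate genes), followed by Actr1a, Cisd1, Slc25a10 and Mindy1 (0.93 each). Spearman's rho was 0.93 for Mvp and 0.77, 0.79, 0.82 and 0.67 for the others in turn. All genes named here were picked for the highest r among the candidates, so these values are descriptions without a test. The nearest gene to Apob was Lnpep (r = 0.97), to Apoe Dpp3 (0.97), to Apoa2 Amt (0.97), to Apoa5 Lhpp (0.94) and to Apoa4 Psap (0.91). For Rpph1 and Apoc1 r was 0.89, for Slc38a3 and Mttp 0.89, for Mat1a and Apoc3 0.88 and for Stbd1 and Apoa1 0.87.

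Other genes of the lipoprotein pathway gave a like result, with 0 of 68 measured genes called higher and 0 lower in edgeR (all genes: 0.00695%). Their median log2 fold change was 0.07, and 44 were positive. At an unadjusted p under 0.05, 7 were higher and 0 lower, beside 4.95% and 5.14% of all genes. DESeq2 called 2, the regulators Foxa2 and Creb3l3, and 0.6% of all genes.

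The 10 other apolipoproteins measured had a median of 0.06 and ranged from -0.29 to 0.22. Saa4, a serum amyloid of high density lipoprotein, had -0.29 ± 0.25, the Apol family members Apol9b and Apol9a had 0.22 ± 0.19 and 0.19 ± 0.17, and Apom, which carries sphingosine phosphate, had 0.15 ± 0.16. Without WRE-edited 6, Saa4 was at -0.018, Apol9b at 0.034, Apol9a at 0.072 and Apom at 0.096. Apol9a and Apol9b are close copies whose reads the counting could split.

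The 16 genes of particle assembly and secretion had a median of 0.02. Tmem41b, a lipid scramblase of the endoplasmic reticulum, had -0.26 ± 0.13, and Vmp1, another scramblase, -0.23 ± 0.14. Klhl12, an adaptor for ubiquitination that acts in vesicle budding, had 0.25 ± 0.14, and Dgat1, which makes triglyceride, 0.15 ± 0.13. None of the 4 editing factors of Apob mRNA was at an unadjusted p under 0.05. The deaminase gene Apobec1 had -0.07 ± 0.16 and its cofactor A1cf 0.04 ± 0.20, while the RNA-binding genes Rbm47 and Syncrip had 0.30 ± 0.19 and -0.32 ± 0.16.

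The 13 genes of plasma remodelling and export had a median of -0.06. Angptl4, an inhibitor of lipoprotein lipase, was at 86.2 ± 31.4 CPM (SD, n = 6) against 34.8 ± 15.9 CPM (SD, n = 5). Its log2 fold change, fitted with the run as a term, was 0.99 ± 0.42 (edgeR adjusted p = 0.469). Without the run term, where the libraries of r711 count toward the effect, it was 1.31. Lcat, which esterifies the cholesterol of high density lipoprotein, had 0.37 ± 0.15, and the paraoxonase gene Pon3 -0.13 ± 0.11. Without WRE-edited 3 and 6, Lcat was at 0.09 and Pon3 at -0.04. Among 9 receptor and uptake genes, with a median of 0.17, the remnant receptor gene Lsr had 0.29 ± 0.12 and the high density lipoprotein receptor gene Scarb1 0.28 ± 0.20. Scarb1 was at 0.06 without WRE-edited 3 and 6.

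The 16 transcriptional regulators had the highest median of these lists, 0.29, with 15 positive and 4 higher at an unadjusted p under 0.05, beside 51.7% and 4.95% of all genes. In the same fit the 8 stellate cell markers had a median of -0.58 with 0 positive, and the 8 endothelial markers -0.22 with 1 positive. The 5 hepatocyte markers, Hnf4a among them, had a median of -0.08 with 2 positive. The part of cell types in the values of the regulators was not tested. Foxa2, a pioneer factor of liver genes, had 0.80 ± 0.17 (edgeR adjusted p = 0.262, DESeq2 adjusted p = 0.0123). Without the run term the value of Foxa2 was 0.44, and with a replicate block in its place 0.16. Both of those fits also set libraries of r711 against controls of other runs. Within runs, Foxa2 differed by 0.71 in mean log2 CPM in r770 and by 1.04 in r595, which holds 1 WRE-edited library. Creb3l3, a membrane-bound factor that controls genes of triglyceride clearance, was at 137.1 ± 26.8 CPM (SD, n = 6) against 85.2 ± 11.1 CPM (SD, n = 5). Its log2 fold change was 0.52 ± 0.13 (edgeR adjusted p = 0.361, DESeq2 adjusted p = 0.0439), and 0.25 without WRE-edited 3 and 6. Cebpa had 0.45 ± 0.17 and Hnf4a, a regulator of many apolipoprotein genes, 0.32 ± 0.13. Both were short of the threshold in edgeR and DESeq2, and without the run term Hnf4a was at 0.10. The differences within r770 and r595 were 0.41 and 0.73 for Creb3l3, 0.37 and 0.62 for Cebpa, and 0.34 and 0.26 for Hnf4a.

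**Figure D5:**
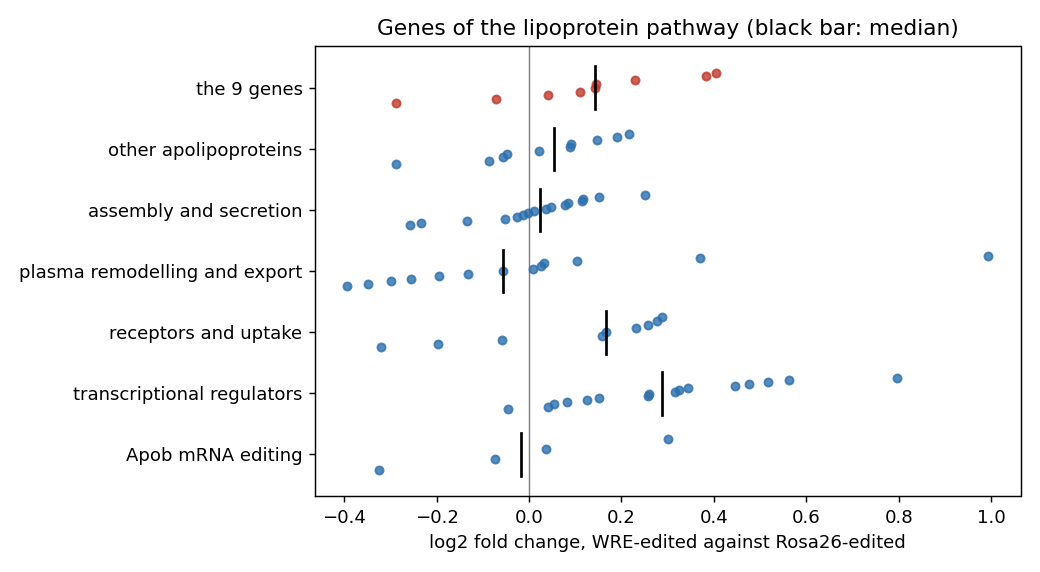
Log2 fold change of each measured gene of the lipoprotein pathway, by list, with a black bar at the median; red points are the 9 genes. The medians lie between -0.06 for plasma remodelling and 0.29 for transcriptional regulators.

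Markers of other cell types were low beside those of hepatocytes. The 5 hepatocyte markers found by symbol summed to 12071 to 19817 TPM in WRE-edited and 13610 to 29536 TPM in Rosa26-edited libraries. Stellate cell markers summed to 7.86 to 25.3 and 13.3 to 22.4 TPM, endothelial markers to 27.8 to 64.6 and 31.4 to 65.9 TPM, and cholangiocyte markers to 2.47 to 7.21 and 4.36 to 13.3 TPM. Lymphocyte markers summed to 3.03 to 6.61 and 3.86 to 9.82 TPM, neutrophil markers to 5.72 to 13.0 and 5.04 to 30.8 TPM, and erythroid markers to 3.99 to 8.27 and 5.38 to 22.8 TPM. WRE-edited 3, low in Apob, was also the lowest library for the sums of hepatocyte, macrophage, stellate, endothelial, cholangiocyte, lymphocyte and erythroid markers. The stellate cell sum was next lowest in WRE-edited 6, at 7.88 against 7.86 TPM. The part of these cells in the results of the 9 genes was not tested.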

How the data were processed

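For each library the deposited table gives expected counts by Ensembl gene. The submitters' processing notes name STAR 2.7.6a, RSEM 1.3.1 and GRCm38, and the columns are RSEM's, per the file headers. The same deposited tables hold TPM and other values, namely gene lengths and effective lengths in bases. Neither the strand setting nor the annotation version was found in the labels or headers. Another deposited table gave the run, which matched the labels in 11 of 11 libraries. The deposited normalized matrix and the miRNA-seq were not used here.

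Of 55536 identifiers 55450 matched a symbol. Rounded expected counts were fitted with edgeR 4.0.16 in R 4.3.3. Genes were kept by filterByExpr on the groups (minimum count 10, minimum total 15) and scaled with TMM. The robust quasi-likelihood model held run and group, tested two-sided with the Benjamini-Hochberg adjustment at a threshold of 0.05. Since r711 has no control, its libraries inform the spread but not the effect. Standard errors were derived from the quasi-likelihood statistic, and intervals from its t distribution. DESeq2 1.42.0 was an alternative. Log2 CPM used a prior count of 2. The fit was tested on simulated data with known changes. Library totals were 20727036 to 38935135 expected counts.

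The members and lists were chosen with earlier results of these data known. Named genes were the 9, up to 4 of each pathway list by smallest p, and the genes nearest in profile (mean log2 CPM above 5). A few that this rule names are left out here. The symbol Tf of the hepatocyte list was not found.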

Additional observations from a re-analysis of the deposited data

Results flagged for a closer look

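In 18 groups (each of the 9 genes in each editing group), 2 libraries lay apart from the rest of their group by Dixon's criterion, which chance meets in about 1 of 20 groups. Apoa1 was at 2861 CPM in WRE-edited 1, against 2051 to 2333 CPM in the other WRE-edited libraries. Without that library the log2 fold change of Apoa1 was -0.03 in place of 0.04. Apoa2 was at 2915 CPM in WRE-edited 6, against 1646 to 2028 CPM in the others. That library is the only WRE-edited one of run r595, whose controls had 2321 and 2216 CPM. Without it the log2 fold change of Apoa2 was 0.05 in place of 0.15.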

How the results depend on the processing

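Between groups, 0 of the 9 genes were called in each alternative run. The difference between runs was refitted by DESeq2 and without the filter on low counts, and 0 of the 9 were called in both. The single call over all genes became 83 by DESeq2, 450.0 without the filter on low counts, 2 with a replicate block and the run term, and 0 without the run term, in r770 alone, in r770 and r595, and without WRE-edited 3 and 6. Leaving out 1 library gave 0 to 2. Pathway genes called went from 0 to 2 (DESeq2) and 3 (no filter). Without the filter the SE of Angptl4 was 0.16 in place of 0.42, and that of Apoa1 0.18 in place of 0.12. Spread was estimated differently in that fit, so its numbers of calls are not directly comparable with the rest. The median of the 9, 0.14, was 0.054 without the run term, 0.089 with a replicate block in its place, 0.046 after summing WRE-edited 4 and 6, 0.068 without WRE-edited 3 and 6, and 0.095 to 0.17 with 1 library left out. Ranked by CPM, 5 of the 8 neighbours kept their order.

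Signs turned as follows, in log2 fold change, none past the threshold. Without the run term these were Apoa1 -0.022, Apob 0.071, Apoc1 -0.051, Apoe -0.0060, Mttp 0.054, Apol9b -0.074, Apol9a -0.10, Pon3 0.020. After summing WRE-edited 4 and 6 they were Apoa1 -0.0077, Apoa2 -0.027, Apob 0.081, Apoc1 -0.058, Apoe -0.073, Mttp 0.046, Apol9b -0.15, Apol9a -0.16, Pon3 0.038, A1cf -0.00084. A replicate block in place of the run term gave Apoa1 -0.029, Apoa2 -0.084, Apob 0.15, Apoc1 -0.12, Apoe -0.21, Mttp 0.089, Apol9b -0.35, Apol9a -0.33, Vmp1 0.018, Pon3 0.099, Lsr -0.029, A1cf -0.0080. Omitting WRE-edited 3 and 6, chosen after seeing the data, gave Apoa2 -0.051, Apob 0.068, Apoe -0.011, Apol9b -0.14, Saa4 0.17, Apol9a -0.10, Apom -0.066, Dgat1 -0.018, Apobec1 0.020. With 1 library left out, Apoa1 ranged from -0.033 to 0.078, A1cf from -0.090 to 0.20 and Apobec1 from -0.19 to 0.0090. Others that moved over 1.5 times included, without WRE-edited 6, Dgat1 0.027, Klhl12 0.14, Scarb1 0.17, Syncrip -0.18, without Rosa26-edited 1, Vmp1 -0.11, Scarb1 0.49, and without Rosa26-edited 2 and 3 in turn, Rbm47 0.16 and 0.47. Without the run term Lsr was 0.075 and Lcat 0.23. Fits without the run term also set libraries of r711 against controls of other runs. The cause of these shifts was not tested. Deviations from the group mean correlated by -0.09 to 0.18 between libraries of equal replicate number, and by -0.26 to 0.30 between the others. Run differences remained in these deviations, so they do not decide whether equal numbers pair libraries. The effect rests on 4 WRE-edited and 5 Rosa26-edited libraries, and that number limits the precision.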
